A study of Mus musculus with 9 samples.

Results

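miR-375, miR-122 and miR-802 are 3 microRNAs best known from endocrine cells and liver, and their levels were read in 9 small RNA libraries of whole mouse kidneys at embryonic day 16.5. The set holds 5 mature names, mmu-miR-375-3p, mmu-miR-375-5p, mmu-miR-122-5p, mmu-miR-122-3p and mmu-miR-802-5p, of the 1607 known mouse miRNA names counted in these libraries. They were matched by exact name and were chosen by their measured levels in these same libraries, so the differences below between groups are a description and carry no test. Of the 5 names, 4 had enough reads to enter the fit of 955 miRNAs, and miR-375-5p did not.

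The study compared 3 libraries of kidneys carrying a DROSHA-E1147K transgene, 3 libraries of DROSHA knockout kidneys and 3 libraries of wild type control kidneys. In the nucleus, the RNase III enzyme DROSHA cuts primary miRNA transcripts into hairpins. E1147K is an amino acid change in its catalytic part that recurs in Wilms tumour, a kidney cancer of childhood. The labels name neither the promoter of the transgene, nor the cells in which the knockout acts, nor an agent given to any group, and they do not say whether the 3 libraries of a group are separate animals, so the spread between them may be technical. Each library held 24350500 to 34896599 reads of known miRNAs, 74.7% to 81.9% of all its counted reads. Markers of kidney epithelium were present in every library: the 5 names of the miR-200 family summed to 12884 to 40205 CPM, which here are counts per 1e6 miRNA reads after scaling by TMM factors of 0.882 to 1.13. Knockout 3 stood apart from the rest, with the lowest miR-200 sum and a striated muscle sum of 10515 CPM, against at most 2073 CPM in any other library. Small RNA counts hold no Drosha mRNA, so the targeted gene could not be checked here.

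An animal miRNA is cut from a hairpin whose 5p and 3p arms each can give a mature strand of about the same length, and one arm usually dominates. The dominant strand guides Argonaute to messages through its seed, the short stretch near its 5′ end. miR-375 is abundant in the hormone-producing cells of the pancreatic islets and of the pituitary, and in mice it restrains insulin secretion. miR-122 is the leading miRNA of hepatocytes, where it affects cholesterol and fatty acid metabolism. miR-802 is known from liver, pancreas and intestine.

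The sequences of miR-375-5p, an arm almost without reads here, and of both arms of miR-802, whose reads divided between the arms, are shown with the seed (bases 2 to 8) in capitals. They were taken from RefSeq on GRCm38.p6, as was the hairpin of miR-802, in which capitals mark the 2 mature arms.
mmu-miR-375-5p: gCGACGAGccccucgcacaaac
mmu-miR-802-5p: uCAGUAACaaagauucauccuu
mmu-miR-802-3p: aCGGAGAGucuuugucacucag
Mir802 hairpin: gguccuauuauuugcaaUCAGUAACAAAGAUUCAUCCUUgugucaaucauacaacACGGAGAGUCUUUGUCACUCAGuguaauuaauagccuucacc
None of these 3 seeds was shared with another of the 1679 mature names in that table. On GRCm38 (mm10) the Mir375 hairpin lies at chr1:74900658-74900721 on the minus strand, overlaps no annotated gene, and sits 7515 bases from Cryba2, a lens crystallin gene, and 1350 bases from Cfap65. The Mir802 hairpin lies at chr16:93369720-93369816 on the plus strand, also outside any annotated gene. Its nearest protein-coding neighbours are Setd4 at 213.641 kb and Runx1 at 543.571 kb.

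miR-375-3p stood higher in the kidneys of both DROSHA lines than in every control library. Its reads numbered 74423, 81255 and 265779 in the transgene libraries 1 to 3, 21831, 55979 and 134156 in the knockout libraries 1 to 3, and 12342, 14791 and 8932 in the control libraries 1 to 3. On the scaled level this was 2697, 2502 and 9142 CPM in transgene kidneys, 737, 2279 and 4856 CPM in knockout kidneys, and 388, 616 and 329 CPM in control kidneys. Transgene 3 was the highest library and control 3 the lowest, and the control libraries lay closest together. By rank among the names of its own library, miR-375-3p stood at place 30 in transgene 3, at place 109 in knockout 1 and at place 158 in control 3. In whole kidneys a lower level in 1 group can come from fewer cells of a type or from less RNA per cell, and these cannot be told apart.

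**Figure D1:**
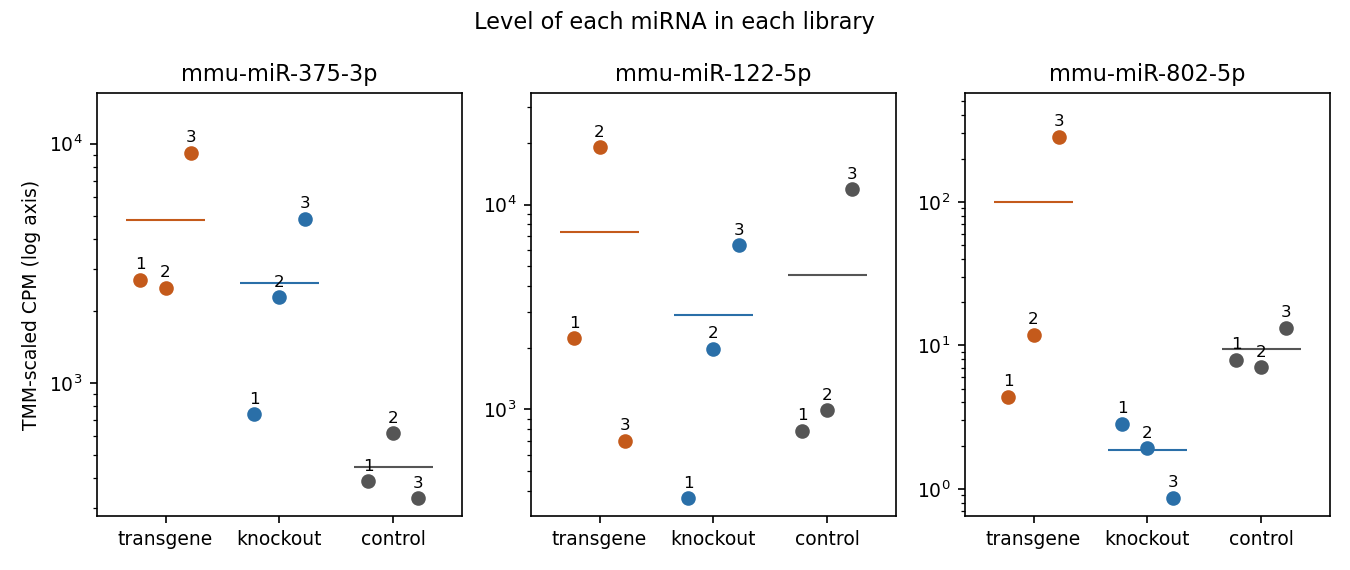
Levels of miR-375-3p, miR-122-5p and miR-802-5p in each library, in TMM-scaled CPM on log axes, with the library number beside each point and the group mean as a line (3 transgene, 3 knockout and 3 control libraries). For miR-375-3p the controls reach at most 616 CPM, below every transgene and knockout library, for miR-122-5p the groups overlap, and for miR-802-5p all 3 knockout libraries lie at 2.84 CPM or less.

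miR-375-3p averaged 4780 ± 3779 CPM in transgene kidneys and 444 ± 152 CPM in controls (SD, n = 3 each), a ratio of means of 10.8 and a fitted log2 fold change of 3.43 (SE 0.77). The lowest transgene library was 4.06 times the highest control. In knockout kidneys it averaged 2624 ± 2081 CPM, against 444 ± 152 CPM in controls, with a log2 fold change of 2.56 (SE 0.74). Here the lowest knockout library was 1.20 times the highest control, so the gap between the groups was narrow. The knockout libraries overlapped the transgene libraries, with a log2 fold change of -0.87 (SE 0.70) for knockout over transgene.

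Both comparisons with control use the same 3 control libraries, so their folds are not independent of each other. Among all 955 miRNAs, the fold of miR-375-3p was the 3rd highest in transgene over control and number 16 from the top in knockout over control. Groups that did not overlap and were higher made up 11.9% of all miRNAs in transgene against control and 12.9% in knockout against control, counts that miR-375-3p belongs to by the way it was chosen. Without transgene 3 the log2 fold of transgene over control was 2.63, and without knockout 3 that of knockout over control was 1.88. Without knockout 1, knockout over control gave 3.03.

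By edgeR's quasi-likelihood test with Benjamini-Hochberg adjustment over all 955 miRNAs, 0% were called in transgene against control, 0% in knockout against control and 0.105% (1 miRNA, miR-3067-5p) in knockout against transgene. The numbers at an unadjusted p under 0.05 were 84, 245 and 67 in that order, and DESeq2 called 4 (0.419%), 113 (11.8%) and 3 (0.314%). None of the 4 tested names of the set was among edgeR's calls, while miR-375-3p was among DESeq2's calls, higher, in both comparisons with control. The names were chosen by their levels in these same libraries, so neither outcome is a test of the set.

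The other arm, miR-375-5p, had 3 reads in transgene 3, 1 read in knockout 3 and 0 in the other 7 libraries. Summed over all libraries this is 4 reads beside 669488 of the 3p arm, or 0.000597% of both (95% Wilson interval 0.000232% to 0.00154%, counting error only). A count of 0 allows up to 3 reads, which is 0.0924 to 0.125 CPM depending on the library. Reads of miR-375 thus came almost wholly from the 3p arm in all groups, and any difference in the 5p arm was not detectable at this depth.

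The deposited tables also hold reads under an Rfam family, a class for reads matched to a family of related RNAs in place of a mature name. For the mir-375 family these were 2064, 2274 and 7447 reads in transgene libraries, 775, 1614 and 4285 reads in knockout libraries, and 404, 434 and 341 reads in controls. The family reads thus ordered the groups as the named reads did, at 2.70% to 3.68% of family and named reads together in every library. Neither miR-375, miR-122 nor miR-802 had a read under the hairpin class in any library.

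miR-122-5p differed more between libraries of a group than between groups. Its reads numbered 61369, 619723 and 20345 in transgene libraries 1 to 3, 10889, 48397 and 174703 in knockout libraries 1 to 3, and 24981, 23773 and 322168 in control libraries 1 to 3. The levels were 2224, 19084 and 699.8 CPM in transgene kidneys, 368, 1970 and 6323 CPM in knockout kidneys, and 785, 991 and 11854 CPM in control kidneys. Each group had 1 library far above its other libraries: transgene 2, knockout 3 and control 3. In transgene 2 miR-122-5p was the name at place 13 of all miRNAs by reads, in control 3 at place 29, and in knockout 1 at place 154.

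Within a group, the highest miR-122-5p library was 27.3 times the lowest in transgene kidneys, 17.2 times in knockout kidneys and 15.1 times in controls. The group means were 7336 ± 10203 CPM in transgene, 2887 ± 3082 CPM in knockout and 4543 ± 6332 CPM in control kidneys (SD, n = 3 each), and in each group the SD exceeded the mean. Log2 fold changes were 0.69 (SE 1.45) for transgene over control, -0.65 (SE 1.45) for knockout over control and -1.35 (SE 1.47) for knockout over transgene, and the groups overlapped in all 3 comparisons. The direction turned with single libraries. Transgene over control gave -1.57 without transgene 2 and 2.99 without control 3, knockout over control gave -1.87 without knockout 3 and 1.67 without control 3, and knockout over transgene gave 0.90 without transgene 2.

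The 3p arm, which gives the minor strand of this hairpin, followed the 5p arm across libraries. miR-122-3p stood at 38.7, 162 and 12.1 CPM in transgene libraries, 6.21, 29.1 and 79.6 CPM in knockout libraries, and 11.6, 12.8 and 177 CPM in controls. The same libraries were high in both arms, and over the 9 libraries Pearson's r of log2 CPM between the arms was 0.99 (Spearman's rho 0.97), as a description of strands cut from 1 hairpin. Fitted log2 folds of miR-122-3p were 0.07 (SE 1.31) for transgene over control, -0.81 (SE 1.32) for knockout over control and -0.89 (SE 1.32) for knockout over transgene. These turned with single libraries too. Transgene over control gave -1.34 without transgene 2 and 2.49 without control 3, knockout over control gave 1.63 without control 3, and knockout over transgene gave 0.52 without transgene 2.

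The share of 3p reads among both arms of miR-122 was 1.24% to 1.71% in 8 libraries and 0.839% in transgene 2 (95% Wilson interval 0.817% to 0.862%), the library with most miR-122 reads. Rfam mir-122 family reads made up 4.48% to 7.53% of family and named reads in 8 libraries. In knockout 1, the library with the fewest miR-122-5p reads, the family share was 1.53% (1.32% to 1.77%), from 172 family reads. These shares give the division of reads within 1 miRNA and do not depend on the scaling between libraries. Mir122 is at chromosome 18, positions 65248861 to 65248926 on the plus strand of GRCm38, inside the lincRNA gene AC157910.3 and between the protein-coding genes Nedd4l and Alpk2.

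**Figure D2:**
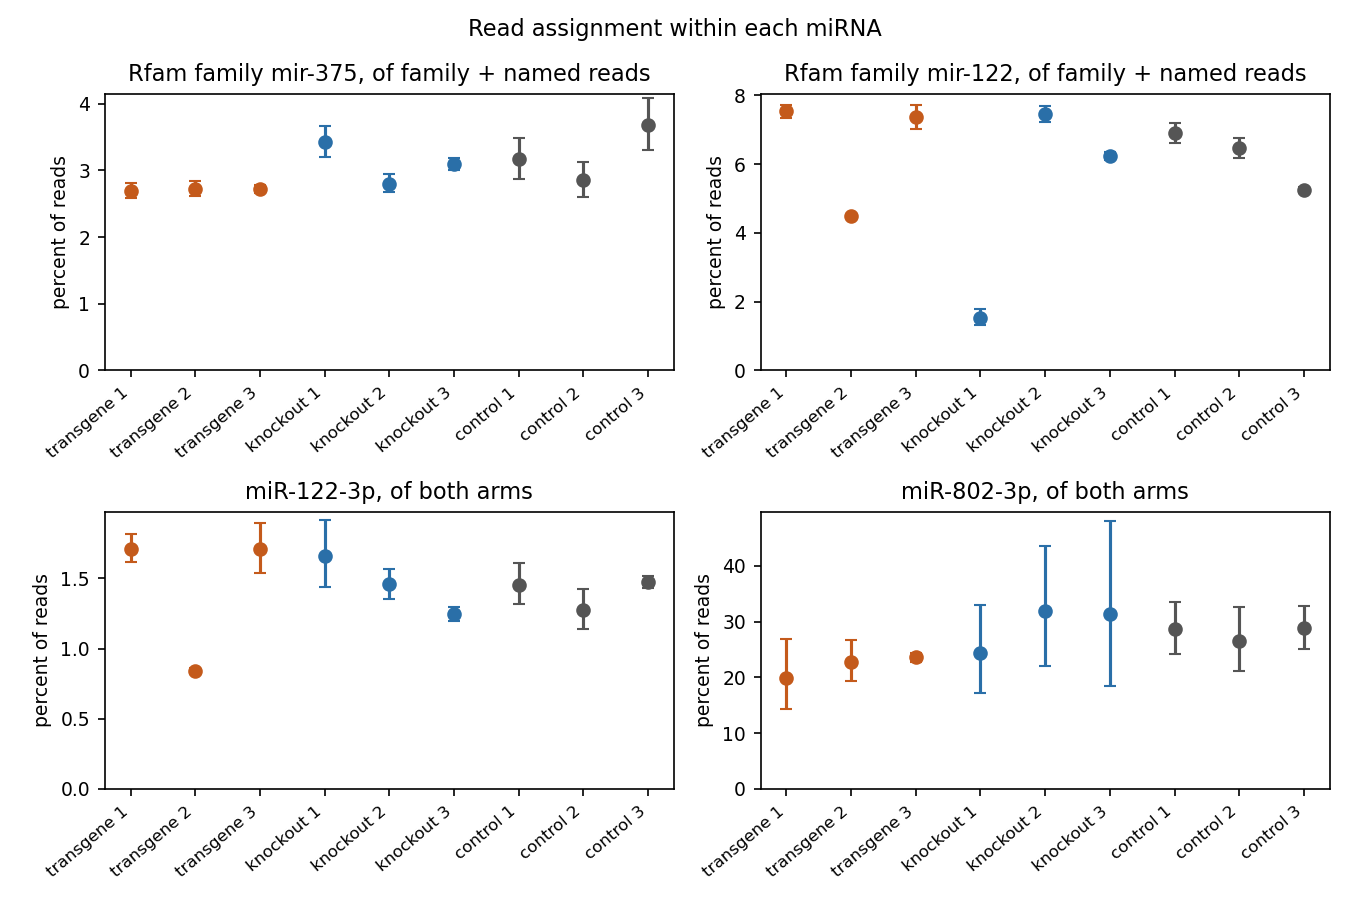
Division of reads within each miRNA, in percent of reads per library (points; bars are 95% Wilson intervals, counting error only): Rfam family reads of mir-375 and mir-122 among family and named reads, and 3p reads of miR-122 and miR-802 among both arms, for 3 transgene, 3 knockout and 3 control libraries. Knockout 1 is low for mir-122 family reads at 1.53%, transgene 2 is low for the miR-122 3p arm at 0.839%, and the miR-802 intervals are wide where reads were few.

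miR-802-5p was the least abundant of the 4 tested names in every library but transgene 3, with lower levels in knockout kidneys and 1 very high transgene library. Its reads numbered 121, 386 and 8247 in transgene libraries 1 to 3, 84, 47 and 24 in knockout libraries 1 to 3, and 252, 169 and 361 in control libraries 1 to 3. This was 4.38, 11.9 and 284 CPM in transgene kidneys, 2.84, 1.91 and 0.869 CPM in knockout kidneys, and 7.92, 7.04 and 13.3 CPM in controls. All 3 knockout libraries lay below all controls and all transgene libraries, and transgene 3 lay far above the rest.

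The mean of miR-802-5p was 1.87 ± 0.984 CPM in knockout kidneys and 9.41 ± 3.38 CPM in controls (SD, n = 3 each), a log2 fold change of -2.33 (SE 1.30), and the lowest control was 2.48 times the highest knockout library. This fold was -2.69 without knockout 1 and -1.90 without knockout 3. Of all 955 miRNAs, 15.6% had knockout libraries that were all below the controls. Knockout over transgene gave -5.73 (SE 1.51), and the lowest transgene library was 1.55 times the highest knockout library, in a comparison where 5.97% of all miRNAs were lower and 4.40% higher without overlap. That fold was -2.12 without transgene 3.

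In transgene kidneys miR-802-5p averaged 99.98 ± 159 CPM, against 9.41 ± 3.38 CPM in controls, and the groups overlapped. The log2 fold change of 3.41 (SE 1.35) rested on transgene 3, and without that library it was -0.15. In transgene against control 12.0% of all miRNAs were lower without overlap, and no tested name of the set was among them.

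The other arm, miR-802-3p, is no member of the set and was read for comparison. It stood at 1.09, 3.51 and 87.7 CPM in transgene libraries, 0.911, 0.895 and 0.398 CPM in knockout libraries, and 3.17, 2.54 and 5.37 CPM in controls, so transgene 3 was high and the knockout libraries were low in both arms. Its log2 fold was -2.32 (SE 1.35) for knockout over control, 3.06 (SE 1.35) for transgene over control and -5.38 (SE 1.51) for knockout over transgene. The gap to the transgene libraries was present with TMM scaling and not without it. The 3p share of both arms was 24.0% over all libraries summed (23.3% to 24.8%), against 1.16% for the 3p arm of miR-122, and it was 23.6% (22.8% to 24.4%) in transgene 3. It spanned 19.9% to 23.6% in transgene, 24.3% to 31.9% in knockout and 26.5% to 28.8% in control libraries, with knockout intervals as wide as 18.6% to 48.0% on the 35 reads of knockout 3.

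**Figure D3:**
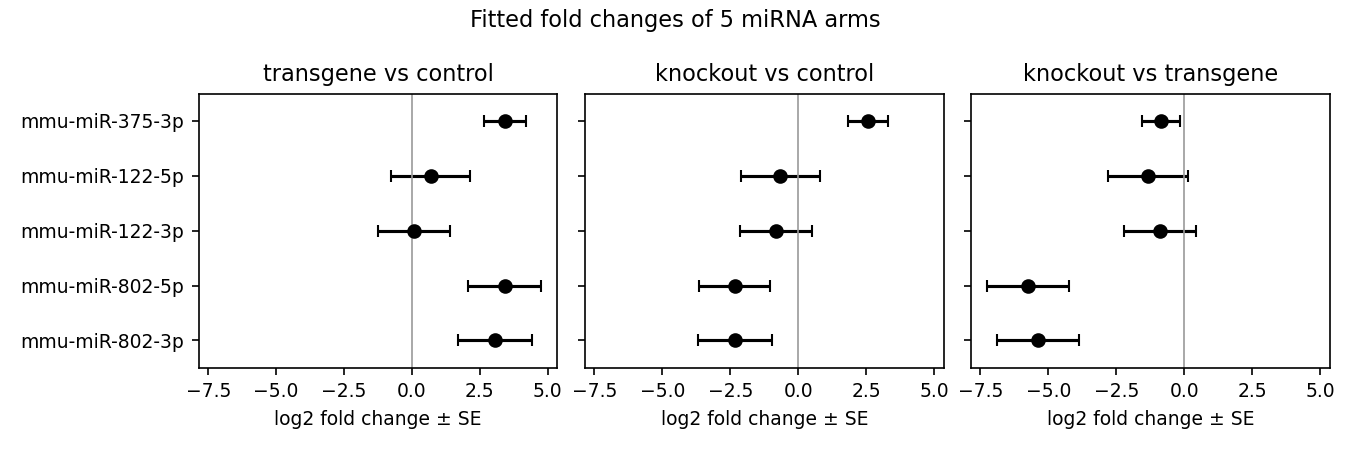
Fitted log2 fold changes with their standard errors (points and bars) of 4 tested names of the set and of miR-802-3p, for transgene over control, knockout over control and knockout over transgene (3 libraries a group). miR-375-3p lies above 0 in both comparisons with control at 3.43 and 2.56, both miR-122 arms have bars that cross 0 against control, and both miR-802 arms lie below 0 where knockout is compared.

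Measured against other miRNAs, all 4 tested names varied widely. Among 465 miRNAs with a mean of at least 10 CPM, the median range over the 9 libraries was 1.502 on the log2 scale. The range was 8.24 for miR-802-5p, the 3rd widest, 5.70 for miR-122-5p at place 15, 4.82 for miR-122-3p at place 25 and 4.80 for miR-375-3p at place 26. miR-802-5p reached a mean of 10 CPM only through transgene 3, at 284 CPM. That library also set its range, so its place among the 465 follows in part from the filter. Within groups the log2 SD was 2.22 for miR-122-5p, 1.99 for miR-122-3p, 1.89 for miR-802-5p and 1.03 for miR-375-3p, against a median of 0.41. miR-375-3p thus had the smallest spread within groups of the 4, yet 49th of the 465.

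The 3 miRNAs shared some of their high libraries and not others. miR-375-3p and miR-802-5p were both highest in transgene 3, where miR-122-5p was lowest of its group, and miR-122-5p was highest in transgene 2. Knockout 3 was the highest knockout library for miR-375-3p and miR-122-5p and the lowest for miR-802-5p, and control 3 was the highest control for miR-122-5p and miR-802-5p and the lowest for miR-375-3p. Over 9 libraries Pearson's r of log2 CPM was 0.08 between miR-375-3p and miR-122-5p (rho 0.00), 0.22 between miR-375-3p and miR-802-5p (rho -0.15), and -0.14 between miR-122-5p and miR-802-5p (rho 0.03). These r moved with the libraries included. Leaving out controls 3 and 1, r of miR-375-3p was 0.32 with miR-122-5p and 0.43 with miR-802-5p. Leaving out transgene 2 and control 3, r of miR-122-5p was 0.47 with miR-375-3p and -0.50 with miR-802-5p.

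Markers of other tissues were read beside the set. Of 11 names of a pancreas list, 10 were counted and 6 tested, and 3 of the 6 had positive folds in transgene over control (median log2 0.71, against -0.04 over all tested) and 3 in knockout over control (median 0.88, against -0.03). The list holds 2 kinds of member that behaved differently. miR-216 and miR-217 mark the digestive-enzyme cells of the pancreas. They summed to 0.652 to 2.89 CPM in transgene, 0.506 to 2.79 CPM in knockout and 0.5001 to 3.05 CPM in control libraries. These markers of digestive-enzyme cells were thus near 0 in every library. Of the 6 counted names 2 were tested, and up to 2 had no read in a library. miR-7, known from islets, pituitary and neurons, summed to 6021, 4987 and 2704 CPM in transgene, 1018, 5154 and 15747 CPM in knockout and 2233, 1366 and 1236 CPM in control libraries.

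The miR-7 sums of all 3 transgene libraries lay above all controls, and in knockout kidneys they lay above the controls in libraries 2 and 3 and below them in library 1, the knockout library that was also lowest for miR-375-3p. miR-7a-5p, the main member, had log2 folds of 1.44 (SE 0.76) for transgene over control and 2.02 (SE 0.77) for knockout over control. miR-7b-5p stood at 629, 595 and 105 CPM in transgene, 13.8, 552 and 2940 CPM in knockout and 45.02, 11.5 and 4.67 CPM in control libraries. Its log2 folds were 4.44 (SE 1.64) for transgene over control and 5.84 (SE 1.75) for knockout over control. miR-7a-1-3p of the same list did not rise. Its log2 folds were -0.15 (SE 0.23) for transgene over control and -0.25 (SE 0.23) for knockout over control, and the groups overlapped. Neither miR-7a-5p nor miR-7b-5p passed edgeR's test, while DESeq2 called 3 of the 4 miR-7 names of the list, miR-7a-5p, miR-7b-5p and miR-7a-2-3p, higher in knockout against control and 0 in transgene against control. Among all miRNAs DESeq2 called 11.8% in knockout against control and 0.419% in transgene against control. In the transgene group the order of the libraries differed: transgene 3 was the highest for miR-375-3p and the lowest for miR-7. In the knockout group both rose from library 1 to library 3. Among controls both were lowest in control 3 and were highest in different libraries. The part of other cell types in the miR-375-3p result was not tested.

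**Figure D4:**
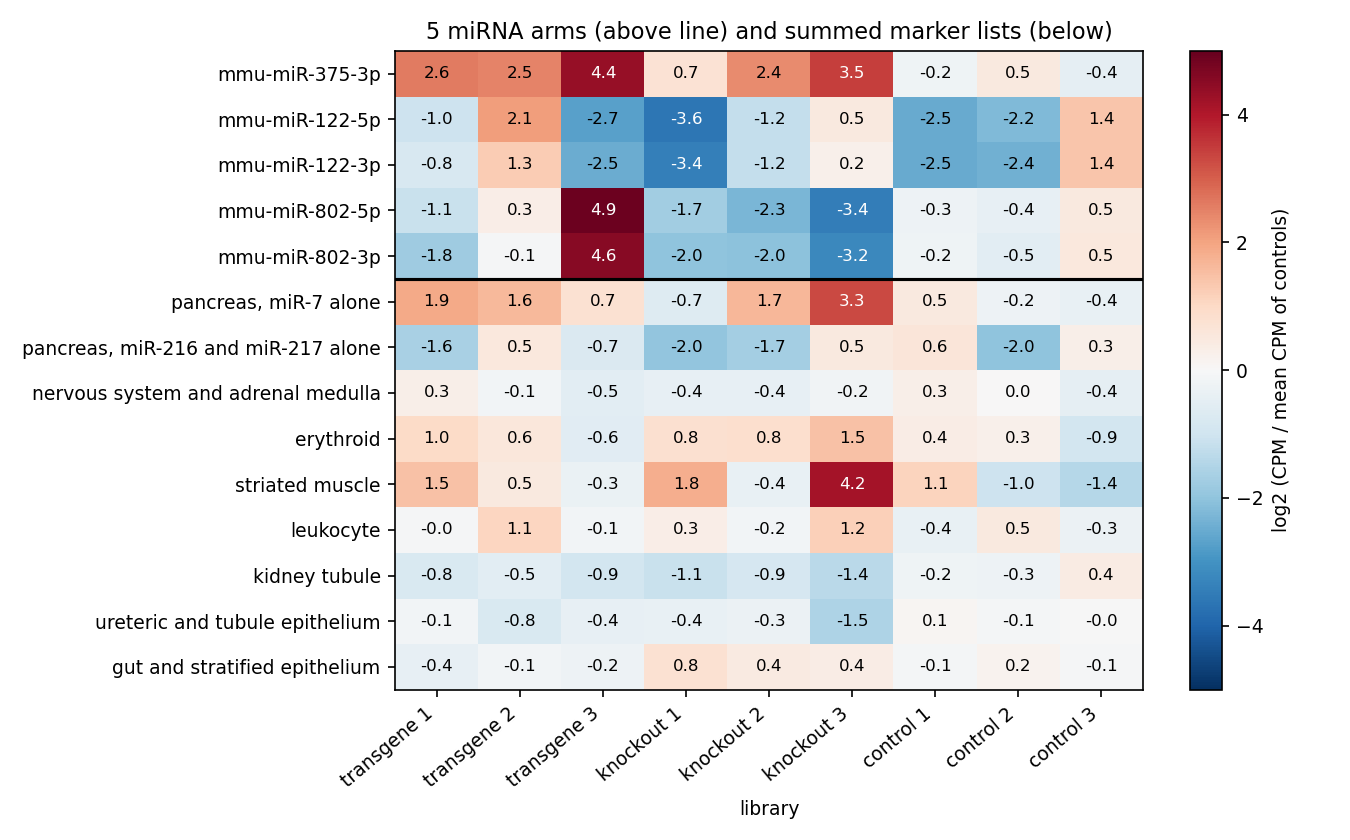
Level of each miRNA arm and the summed level of each marker list in each library, as log2 of CPM over the mean CPM of the controls (colour and printed value; columns are 3 transgene, 3 knockout and 3 control libraries). miR-375-3p is above the control mean in all 6 libraries of the DROSHA lines, miR-802 is below it in all 3 knockout libraries, and the muscle, erythroid and miR-7 lists are highest in knockout 3.

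Muscle and blood markers were read in the same way. Striated muscle miRNAs summed to 468 to 1641 CPM in transgene, 458 to 10515 CPM in knockout and 221 to 1254 CPM in control libraries, with the top in knockout 3, which was also the highest knockout library for miR-375-3p and miR-122-5p. Erythroid miRNAs summed to 27433 to 80512 CPM in transgene, 71944 to 113780 CPM in knockout and 21504 to 52822 CPM in control libraries. All 3 knockout libraries lay above all controls for the erythroid sum, and knockout 3 was again the highest, while transgene 3 and control 3 were the lowest of their groups. This sum was mostly miR-451a, at 109692 of 113780 CPM in knockout 3. By single name, 2 of 7 erythroid names lay above all controls in knockout, against 12.9% of all miRNAs. In transgene 1 of 7 did, against 11.9%. Folds over control were positive, as for miR-375-3p, for 7 of 7 erythroid names (median log2 0.44 in transgene and 1.16 in knockout). They were also positive for 6 of 6 tested muscle names (0.71 and 2.92), against medians of -0.04 and -0.03 over all tested. The 7 erythroid names include both arms of miR-144, miR-486a and miR-486b, so they are not independent of each other. The parts of muscle and blood in these values were not tested.

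Neural and adrenal medulla markers summed to 1937 to 3411 CPM in transgene, 2132 to 2478 CPM in knockout and 2080 to 3483 CPM in control libraries, ranges that overlapped. Leukocyte markers summed to 566 to 1297 CPM in transgene, 560 to 1420 CPM in knockout and 481 to 883 CPM in controls, with the tops in transgene 2, knockout 3 and control 2. Kidney tubule markers, among them miR-204-5p and miR-192-5p, summed to 2696 to 3543 CPM in transgene, 1980 to 2817 CPM in knockout and 4231 to 6685 CPM in control libraries. Their 7 tested names all had negative folds in both comparisons with control (median -0.50 and -1.26), opposite to miR-375-3p. The miR-200 family summed to 22192 to 34060 CPM in transgene, 12884 to 30391 CPM in knockout and 35403 to 40205 CPM in control libraries. Of its 5 names, 1 had a positive fold in each comparison with control (median -0.34 and -0.69). Gut and stratified epithelium markers summed to 893 to 1098 CPM in transgene, 1562 to 2033 CPM in knockout and 1112 to 1332 CPM in controls. edgeR called 0 names of the 8 lists in each comparison. Of their 45 tested names, DESeq2 called 0 in transgene against control. In knockout against control, where it called 11.8% of all miRNAs, it called 10 of the 45 higher and 2 lower. Besides the 3 miR-7 names, the higher ones were 5 muscle names (miR-1a-3p, miR-133a-3p, miR-133b-3p, miR-206-3p and miR-499-5p), miR-142a-5p of leukocytes and miR-205-5p of stratified epithelium, and the lower ones were the tubule markers miR-192-5p and miR-204-3p. In knockout against transgene, where it called 0.314% of all miRNAs, it called 1, miR-205-5p, higher. No muscle or miR-7 name had knockout libraries that all lay above the controls, as 12.9% of all miRNAs did. By that measure 2 of 7 erythroid, 1 of 5 leukocyte and 2 of 3 gut and stratified epithelium names were higher. Knockout libraries all lay below the controls for 6 of 7 tubule and 3 of 5 miR-200 names, against 15.6% of all miRNAs. Transgene libraries all lay above the controls for 3 of 4 miR-7 names and below them for 2 of 7 tubule names, against 11.9% and 12.0% of all miRNAs.

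The miRNAs whose log2 CPM followed miR-375-3p most closely over the 9 libraries, among 461 others of at least 10 CPM, were miR-7a-2-3p (r 0.81, rho 0.67), miR-376c-3p (0.80, 0.87), miR-127-3p (0.79, 0.75), miR-369-3p (0.78, 0.82) and miR-337-5p (0.77, 0.77). The last 4 belong to the imprinted Dlk1-Dio3 miRNA region, as do miR-337-3p, miR-154-3p and miR-495-3p, named below for miR-122-5p. Leaving out controls 3 and 1, the libraries farthest from the median of miR-375-3p, r was 0.60 to 0.77. Because the groups differ in miR-375-3p, these r include the difference between groups. For miR-122-5p the closest were miR-223-3p of myeloid cells (r 0.80, rho 0.70), miR-337-3p (0.74, 0.60), miR-202-5p, known from gonads (0.71, 0.82), miR-154-3p (0.66, 0.53) and miR-495-3p (0.66, 0.58). Both lists were picked as the 5 highest r among 461 miRNAs over only 9 libraries, so high values follow in part from the picking.

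Without transgene 2 and control 3, the r of these 5 with miR-122-5p were 0.72 to 0.81. miR-223-3p stood at 132, 272 and 113 CPM in transgene, 133, 203 and 279 CPM in knockout and 111, 136 and 173 CPM in control libraries, so its highest library in each group was that of miR-122-5p, over a much smaller range. miR-202-5p stood at 1381, 83.1 and 0.998 CPM in transgene, 1.35, 61.2 and 85.9 CPM in knockout and 23.2, 2.79 and 565 CPM in control libraries. Its top library was transgene 1, where miR-122-5p was near the middle of its range.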

How the data were processed

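Small RNA of 9 kidney libraries was sequenced by the submitters, 3 in each of 3 groups taken from the labels. Per the labels' protocols, RNA was extracted with Trizol and libraries followed a BGI protocol. Tools listed in the submitters' processing notes are CASAVA 1.8 and Bowtie2, with build mm10. The sources used here do not give how reads matching several names were assigned. The authors deposited whole-number read counts per small RNA name and a TPM column, which was not used.

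Counts of known mouse miRNAs, mature and hairpin rows of a name added, were fitted over all 9 libraries with edgeR 4.0.16 in R 4.3.3 (TMM, filterByExpr, quasi-likelihood F test, Benjamini-Hochberg threshold 0.05). The common biological coefficient of variation was 0.489. CPM are per TMM-scaled miRNA total, and log2 values use a prior count of 2. The steps were first tested on simulated data. The miRNAs and marker lists were chosen with earlier results of these data known. Named beside the set were the other arms, up to 3 abundant members of each of 8 marker lists and the 5 miRNAs most like miR-375-3p and miR-122-5p. Alternatives tried were other size factors, no scaling, all reads as library size, no filter, DESeq2 1.42.0, 2 groups only, mature rows only, a replicate block, leaving out each library and, added after seeing the data, adding Rfam family reads. Replicates differed by more than sampling noise (chi-square per degree of freedom of 864 or more), so none was counted as a duplicate.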

Additional observations from a re-analysis of the deposited data

How the results depend on the processing

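The log2 folds of the 4 tested names kept their sign in all 3 comparisons under the 9 settings other than leaving out a library. miR-375-3p over control lay between 3.07 and 3.70 in transgene and between 2.12 and 2.76 in knockout kidneys, the highest without scaling factors. In that setting the median of all miRNAs was 0.18 and 0.19, against -0.04 and -0.03 with TMM factors. Leaving out each library gave 2.63 to 3.81 for transgene over control and 1.88 to 3.03 for knockout over control, and -1.62 to -0.05 for knockout over transgene. For miR-802-5p it gave -2.69 to -1.90 for knockout over control, -6.29 to -2.12 for knockout over transgene and -0.15 to 3.995 for transgene over control. Both miR-122 arms changed sign when single libraries were left out: miR-122-3p gave -1.34 to 2.49 for transgene over control, -1.84 to 1.63 for knockout over control and -1.96 to 0.52 for knockout over transgene.

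Among all miRNAs, DESeq2 in place of edgeR called 4 in transgene against control, 113 (74 higher, 39 lower) in knockout against control and 3 in knockout against transgene. The cause was not tested. Leave-one-out counts were 0 in transgene against control, 0 to 48 in knockout against control, the top without knockout 1, and 0 to 1 in knockout against transgene, where fitting only the 2 groups compared gave 0. With the replicate number as a block, the count in knockout against transgene was 0, and it stayed 0 in the other comparisons. Deviations of same-numbered libraries correlated at -0.302 to 0.102, and those of differently numbered libraries at -0.269 to 0.351. A pairing by number was thus not seen, but 3 libraries a group are too few to exclude it. With 3 libraries a group, differences within the spread of these libraries were not detectable. The low reads of miR-802 in knockout kidneys and of miR-375-5p limit their precision.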
